A study of Mus musculus with 2 samples.

Results

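Mitochondrial ribosomal protein genes were taken as all annotated genes named Mrpl or Mrps followed by digits, with an ending letter allowed and pseudogene names left out. The rule used names alone and found 78 genes, all protein-coding, of 16910 annotated nuclear genes with a read. All transcript classes of these genes were counted, which gave 557 transcript models in replicate 1 and 290 in replicate 2. The data were long-read RNA counts from adrenal glands of female B6CASTF1/J mice aged 2 months, an F1 cross of the B6 and CAST backgrounds by its name, with total RNA as the starting material and no treatment given. There was 1 group of 2 libraries, called biological replicates 1 and 2. The biosample labels number the females 03 and 04, but both library labels carry 03 and both biosamples 1 donor identifier. An input of 1 µg is stated for replicate 1 alone. Nothing else says that the libraries came from separate animals, so a difference between these 2 libraries may be technical. Each p-value sets that difference against counting error alone and holds no estimate of spread between libraries or animals.

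The mitochondrial ribosome translates the few messages encoded by mitochondrial DNA, all of them subunits of the respiratory chain and ATP synthase. Its RNAs come from that DNA, whereas its proteins are encoded in the nucleus, made in the cytosol and imported. Some of these proteins descend from bacterial ribosomal proteins and others were added in mitochondria. The large subunit joins amino acids and the small subunit reads the message. In the adrenal cortex, the mitochondria also carry out the first and last steps of corticosteroid synthesis.

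Replicate 1 held 1209457 reads of annotated nuclear genes and replicate 2 held 502655, and levels are counts per 1e+06 of these reads (CPM). A read of a longer transcript counts once, so CPM is a measure of molecules read and is not divided by length. All 6 cortex markers were detected, and their levels added up to 49582 CPM in the first library and 54966 CPM in the second.

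All 78 genes had reads in both libraries and passed the detection minimum of 3 reads in each. The fewest reads of a member were 12 in replicate 1 and 9 in replicate 2, the median was 98 and 31, and the most was 326 and 89. Together they took 8245 reads in replicate 1, or 0.682% of nuclear gene reads (exact Clopper-Pearson 95% interval 0.667 to 0.697%). In replicate 2 they took 2746 reads, or 0.546% (0.526 to 0.567%). The summed level was 6817 CPM and 5463 CPM, a mean of 6140 ± 957.5 (SD, n = 2). The intervals cover counting error only. The median member stood at 72.2 CPM, against 35.2 CPM for the median of the 9942 detected genes. Of the 78 members, 71 lay above that median and 27 above the upper quartile of 85.0 CPM.

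Within the large subunit, Mrpl33, a homologue of a bacterial protein, had the highest mean level. It had 326 reads in replicate 1 and 63 in replicate 2, which were 269.5 and 125.3 CPM. Its level was the highest of the large subunit in replicate 1 but not in replicate 2. There Mrpl38, a mitochondria-specific protein, was highest with 84 reads (167.1 CPM), after 150 reads (124.0 CPM) in replicate 1. Mrpl4, whose bacterial counterpart lines the exit tunnel, had 144 and 74 reads (119.1 and 147.2 CPM). Mrpl20, whose bacterial homologue acts early in assembly, had 182 and 47 reads (150.5 and 93.5 CPM). The 2 libraries therefore gave different orders at the top, and the mean levels of Mrpl38 (145.6 ± 30.5 CPM), Mrpl4 (133.1 ± 19.9 CPM) and Mrpl20 (122.0 ± 40.3 CPM) differed by less than the SD of Mrpl38. Mrpl17, Mrpl30, Mrpl10 and Mrpl12 followed, with means from 104.1 to 114.9 CPM. For Mrpl30, 95 reads in replicate 1 and 14 in replicate 2 were in 1 single-exon genomic model of 174 bases. Its mean level and its place in this order count those reads. Mrpl10 and Mrpl12 form the stalk that recruits translation factors in bacteria. Mrpl12 had 106.7 CPM in replicate 1 and 101.5 CPM in replicate 2, while Mrpl10 had 81.0 and 137.3 CPM. At the stalk, Mrpl12 was thus nearly level between libraries and Mrpl10 was higher in replicate 2.

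Within the small subunit, Mrps7 had the highest mean, with 250 and 89 reads (206.7 and 177.1 CPM). Its bacterial homologue nucleates assembly of the head of the small subunit. Mrps24 had 316 and 50 reads (261.3 and 99.5 CPM), above Mrps7 in replicate 1 and far below it in replicate 2. Of the 316 reads, 49 were in 1 single-exon genomic model, described below. Mrps14, Mrps23, Mrps34 and Mrps5 came next, with means of 136.4, 132.4, 123.8 and 119.3 CPM. Mrps23 and Mrps34 are mitochondria-specific, and the other 2 have bacterial homologues. Mrps34 varied little, at 132.3 and 115.4 CPM, whereas the other 3 were all higher in replicate 1.

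The lowest mean levels belonged to Mrpl1, Mrpl19, Mrpl47 and Mrps2, all homologues of bacterial proteins. Mrpl1 had 18 and 9 reads, Mrpl19 18 and 11, Mrpl47 19 and 11, and Mrps2 12 and 17. Their means ran from 16.4 CPM for Mrpl1 to 21.9 CPM for Mrps2, and their order cannot be told from so few reads. The mean levels of members thus spanned from 16.4 to 197.4 CPM.

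**Figure D1:**
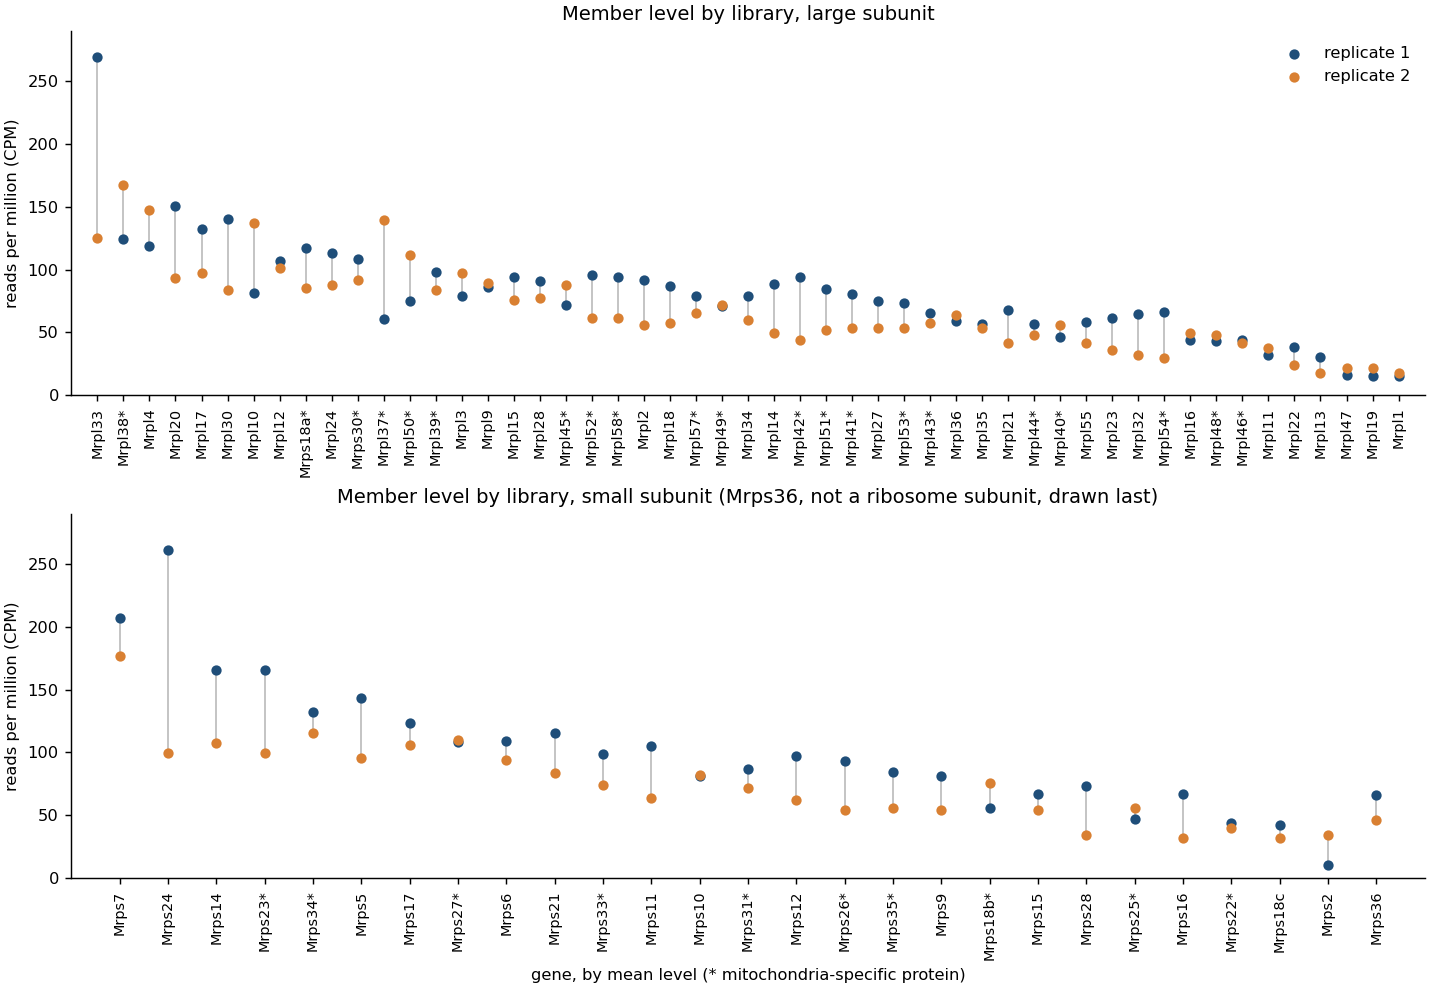
Levels of the 78 genes (vertical axis, CPM) in replicate 1 (blue) and replicate 2 (orange), with the large subunit above and the small subunit below; grey lines join the 2 libraries and an asterisk marks a mitochondria-specific protein. Mrpl33 and Mrps24 stand at 269.5 and 261.3 CPM in replicate 1 and at 125.3 and 99.5 CPM in replicate 2.

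The 51 large-subunit members together had 4089 CPM in the first library and 3460 CPM in the second. The 26 small-subunit members summed to 2662 and 1958 CPM. The ratio of large to small was 1.54 and 1.77, a mean of 1.65 ± 0.16 (SD, n = 2). Per gene the order was the other way round, with a median of 69.1 CPM for a large-subunit member and 80.3 CPM for a small-subunit member. Mrps30 and Mrps18a were counted with the large subunit, where their proteins sit despite their names, and Mrps36 was left out of both. With subunits taken from gene names the ratio was 1.41. The 5 core subunits with other names, 573.0 and 459.6 CPM together, are outside both sums. Each ratio is thus one of members and not of whole subunits. The coefficient of variation over genes was 0.46 for the large and 0.47 for the small subunit. The 46 bacterial homologues had a coefficient of 0.54 and the 31 mitochondria-specific members one of 0.33. These are descriptions of 1 list without a test.

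Several members have names or roles that set them apart. Mrps18a, Mrps18b and Mrps18c are paralogues, of which the first sits in the large subunit. Mrps18a had 142 and 43 reads (117.4 and 85.5 CPM), Mrps18b 67 and 38 (55.4 and 75.6 CPM), and Mrps18c 51 and 16 (42.2 and 31.8 CPM). Mrps18a was the highest of the 3 in both libraries and Mrps18c the lowest. Mrps30 had 131 and 46 reads (108.3 and 91.5 CPM). Mrps36, which is now known as a subunit of the oxoglutarate dehydrogenase complex, had 80 and 23 reads (66.1 and 45.8 CPM), inside the range of the ribosomal members.

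The 5 core subunits that carry other names had levels like those of the members, with a median of 82.8 CPM. Aurkaip1 had 182.7 and 129.3 CPM, Gadd45gip1 161.2 and 139.3 CPM, and Dap3, a small-subunit GTP-binding protein, 86.0 and 79.6 CPM. None of these 5 was called between libraries by Fisher's exact test. Translation factors were lower per gene. Their median was 33.8 CPM, led by the elongation factor Tufm at 190.2 and 236.7 CPM, the elongation factor Gfm1 at 105.0 and 127.3 CPM, and Tsfm, which reloads Tufm, at 98.4 and 91.5 CPM. The 24 assembly and rRNA factors had a median of 40.6 CPM, led by Mpv17l2 (161.2 and 139.3 CPM), Rbfa (130.6 and 101.5 CPM) and the helicase Dhx30 (77.7 and 121.4 CPM). The 8 genes of mitochondrial transcription and RNA stability had a median of 31.3 CPM, led by the mRNA-binding protein Lrpprc (182.7 and 61.7 CPM), its partner Slirp (84.3 and 69.6 CPM) and the RNA polymerase Polrmt (61.2 and 35.8 CPM).

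Respiratory subunits and cytosolic ribosomal proteins had higher levels per gene. The 82 nuclear respiratory subunits had a median of 274.6 CPM per gene and the 79 cytosolic ribosomal proteins one of 204.9 CPM. Atp5b, Atp5a1 and Sdha led the first list, with mean levels of 3265, 2506 and 1632 CPM. In the second list, Rplp0 had a mean level of 958.1 CPM and Rpl4 one of 848.8 CPM. The coefficient of variation over genes was 0.47 for members, 0.77 for cytosolic ribosomal proteins and 1.24 for respiratory subunits. The members' levels were thus the most even of these 3 lists, but the 5 core subunits with other names had a like coefficient of 0.46. The respiratory list also includes entries with very few reads, down to a mean of 0.41 CPM in another entry of Atp5o. The main entry of Atp5o had a mean of 288.3 CPM, so this gene is counted more than once in the 82. The part of low entries in the coefficient was not tested. No test was made of these differences.

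**Figure D2:**
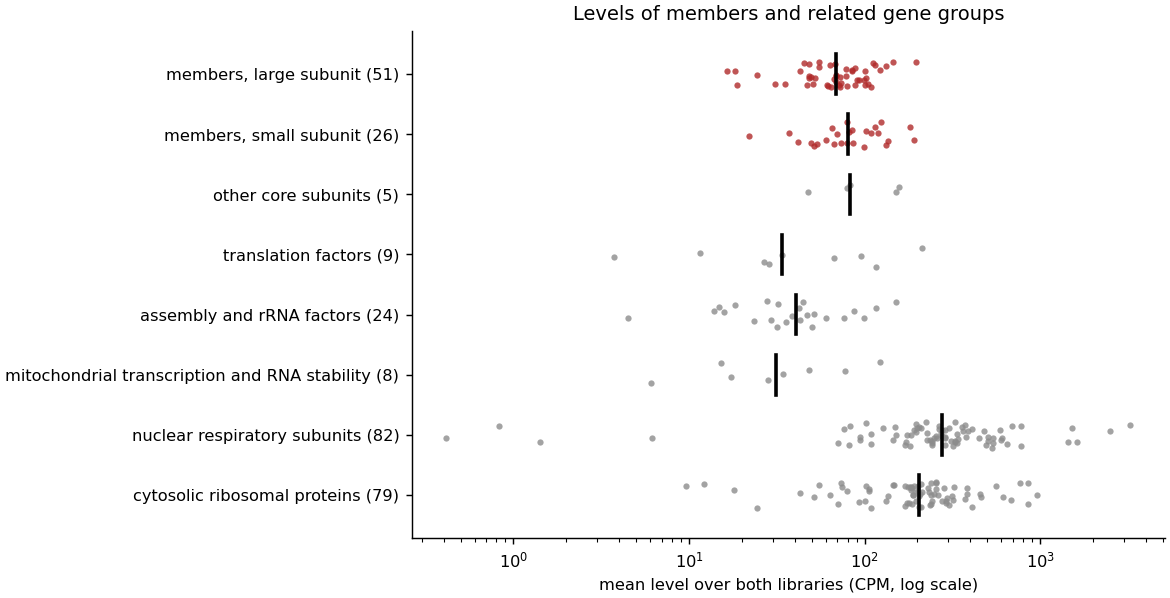
Mean level over both libraries (horizontal log axis, CPM) of each gene (points) in the 2 subunits (red) and in related groups (grey), with the number of genes in brackets and the median as a black bar. Members have medians of 69.1 and 80.3 CPM, below those of the respiratory subunits (274.6 CPM) and cytosolic ribosomal proteins (204.9 CPM).

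Between the libraries, 8 of the 78 members were called, which is 10.3%, where the background was 9.55% of the 10170 genes tested. A call was an adjusted p under 0.05 and a change of at least 2-fold in Fisher's exact test with Benjamini-Hochberg adjustment over all tested genes. The share of members called was near the background and is not a result about the members. Called lower in replicate 2 were Mrps24, Mrpl54, Mrpl33, Mrpl42, Mrps28 and Mrps16, and called higher were Mrpl37 and Mrps2. On mm10, Mrps24 (ENSMUSG00000020477.10) lies at chr11:5703983-5715680 on the minus strand. Mrpl37 (ENSMUSG00000028622.11) lies at chr4:107055874-107066868 on the minus strand. Mrps2 (ENSMUSG00000035772.11) lies at chr2:28468066-28471178 on the plus strand. Mrpl33 (ENSMUSG00000106918.3) lies at chr5:31596935-31664384 on the plus strand.

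Mrps24 moved furthest down, from 316 to 50 reads, a log2 ratio of -1.38 ± 0.22 (SE from counts; adjusted p = 1.15e-10, Fisher's exact test). Of its reads in replicate 1, 53 were in genomic models and in replicate 2 none were, and without that class the log2 ratio was -1.15. Of these 53, 49 were in 1 single-exon model from 5713417 to 5715455. That model lies upstream of the promoter window that RefSeq gives for the gene (5707652 to 5707951). Mrpl33 fell by 1.10 ± 0.20 on the log2 scale (adjusted p = 7.28e-08, Fisher's exact test). With annotated transcripts alone, which hold few of its reads, the log2 ratio of Mrpl33 was 0.09 and not called. Mrpl42, a mitochondria-specific large-subunit protein, had 114 and 22 reads and a log2 ratio of -1.08 ± 0.33. Mrpl54 had 80 and 15 reads, Mrps28 88 and 17, and Mrps16 81 and 16, with log2 ratios of -1.11, -1.07 and -1.04. These 4 calls were lost under some settings. After correction for length and GC content, Mrpl42 (-0.52), Mrpl54 (-0.90) and Mrps28 (-0.84) were not called. Mrps16 was not called without a read minimum (adjusted p = 0.0524, Fisher's exact test), and neither it nor Mrpl54 was called with replicate 1 thinned to the reads of replicate 2 (adjusted p = 0.136 and 0.0999).

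Mrpl37, a mitochondria-specific large-subunit protein, had 73 reads in replicate 1 and 70 in replicate 2 (60.4 and 139.3 CPM). Its level was higher in replicate 2 by 1.21 ± 0.24 on the log2 scale (adjusted p = 1.77e-05, Fisher's exact test). Mrps2 had 12 and 17 reads and a log2 ratio of 1.75 ± 0.53 (adjusted p = 0.0123, Fisher's exact test). The log2 ratio of Mrps2 was 2.57 with annotated transcripts alone and 2.81 with replicate 1 thinned, so its size is poorly known at this depth. Its total of reads was too low for it to enter with a minimum of 50 reads.

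Across all 78 members the median log2 ratio was -0.33, against -0.06 over all tested genes, and 56 members were lower and 22 higher in replicate 2. Over all tested genes the median ratio was higher with each step in transcript length, and over members it was higher up to 1500 bases. The 16 members whose main annotated transcript was under 800 bases had a median of -0.62, and all genes of that length one of -0.58. From 800 to 1000 bases the medians were -0.37 for 10 members and -0.41 for all genes, and from 1000 to 1500 bases -0.16 for 21 members and -0.12 for all genes. The 31 members of 1500 bases or more had a median of -0.22, and all genes of that length 0.02, so the longest members lay below other genes of their length. No test of this was made. After the same correction, the median member stood at -0.13 and 51 of 78 members were lower, while the median of all 9709 genes with a length was -0.03. Cytosolic ribosomal proteins, with a median length of 791 bases, had a median log2 ratio of -0.61, and respiratory subunits, with 738.5 bases, one of -0.52. The part of transcript length in these differences was not tested beyond these values.

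**Figure D3:**
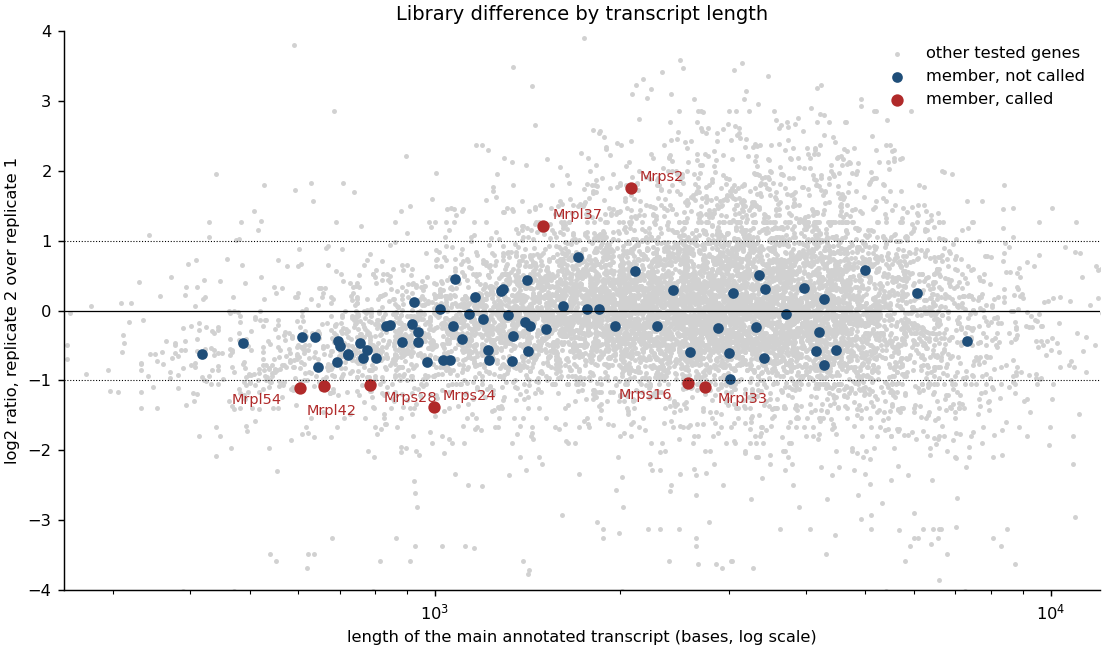
Log2 ratio of replicate 2 over replicate 1 (vertical axis) against the length of the main annotated transcript (horizontal log axis, bases) for members (blue, or red where called) and other tested genes (grey); dotted lines mark 2-fold, and 526 other genes lie off the axes or have no length. All 16 members under 800 bases lie below 0, and Mrpl33 is placed by an annotated transcript of 2741 bases although most of its reads lie in a model of 460 to 465 bases.

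Some markers of other cells were also unequal between the libraries. The 4 medulla markers had a sum of 6231 and 4333 CPM, and they did not move together. Chga went from 4409 to 2590 CPM and Pnmt from 399.4 to 195.0 CPM, of which Pnmt was called lower, while Th had 1307 and 1371 CPM and Dbh 115.8 and 177.1 CPM. The 5 fat markers had a sum of 3861 and 3784 CPM, within which Cfd was lower in replicate 2 (2480 and 1910 CPM) and Ucp1 (429.1 and 767.9 CPM) and Cidea (416.7 and 592.9 CPM) were higher, with none of the 5 called. The 3 endothelial markers had a sum of 311.7 and 455.6 CPM, most of it from Plvap (281.9 and 415.8 CPM). The 3 macrophage markers had a sum of 55.4 and 73.6 CPM. None of the 2 tested endothelial and 3 tested macrophage markers was called. Both liver markers were called lower in replicate 2, from a sum of 124.8 to 49.7 CPM. Of 3 kidney markers, 2 had no read. The part of these markers in the members' differences was not tested, and in whole glands fewer cells of a type and less RNA per cell cannot be told apart. Of 43 tested genes of the 4 mitochondrial translation and transcription lists, 2 were called, both lower in replicate 2, a smaller share than the 9.55% of all genes. Lrpprc had 221 and 31 reads (log2 ratio -1.55, adjusted p = 7.52e-09, Fisher's exact test), and Malsu1, which keeps the subunits apart during assembly, had 67 and 11 reads (log2 ratio -1.29, adjusted p = 0.0187, Fisher's exact test).

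Most member reads lay in annotated transcripts, 84.4% in replicate 1 and 89.2% in replicate 2, against 76.5 and 81.8% over all annotated nuclear genes. Of these annotated reads, 97.5 and 98.2% were in transcripts annotated as protein-coding. Incomplete splice matches, which hold only part of an annotated chain of introns, took 3.76 and 1.89% of member reads and 11.6 and 7.08% of all reads. Members under 1000 bases had 1.97 and 0.871% of reads in this class and longer members 4.75 and 2.32%. Most incomplete reads with a stated subtype lacked the 5′ part, with 159 and 30 reads against 41 and 6 that lacked the 3′ part. Models new in catalog, which join known splice sites in a new way, took 2.01 and 2.62%. Models new not in catalog, which use an unannotated splice site, took 5.42 and 4.26% with Mrpl33 and 2.05 and 2.39% without it. The genomic class took 4.45 and 2.00%.

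A single transcript carried most reads of most members. The median share of the main transcript was 88.7% of a gene's reads, with 62 of 78 members over 80% and 5 under 50%. These values include members at any depth. With at least 50 reads in each library, the median was 83.1% for 14 members and 82.8% for all 2098 genes, so members were near the background. Between libraries, 14 members had at least 50 reads in each, and 3 of them were called for a change of at least 10 percentage points, where the background was 16.4% of 2098 genes. That share is again near the background. The 3 were Mrpl10, from 51.0 to 76.8% (adjusted p = 0.00564, Fisher's exact test), Mrpl37, from 80.8 to 95.7% (adjusted p = 0.0430, Fisher's exact test), and Mrpl12, from 87.6 to 100% (adjusted p = 0.0356, Fisher's exact test). In Mrpl10, 33 reads of replicate 1 and none of replicate 2 were incomplete splice matches. Counted over annotated and new spliced reads alone, a denominator chosen after the first values were seen, none of 12 members was called, where the background was 0.742% of 1887 genes. On that count Mrpl10 stood at 78.1 and 85.5%, Mrpl37 at 93.7 and 95.7%, and Mrpl12 at 95.8 and 100%. By it the median share was 93.3% over all 78 members at any depth. It was 93.0% over the 1887 genes with at least 50 such reads in each library, so the 2 medians differ in read minimum.

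The 8 lowest mean shares belonged to Mrpl30, Mrps17, Mrpl24, Mrps10, Mrpl55, Mrps12, Mrps2 and Mrpl10. They fall into members with genomic or incomplete reads and members with more than 1 spliced form. In Mrpl30, 95 of 170 reads in replicate 1 and 14 of 42 in replicate 2 were genomic, in 1 model of 174 bases inside the last exon. In Mrpl24, 54 and 8 reads were genomic and the model that held them was listed with a length of 1 base. Mrps2 had 6 incomplete reads of 12 and 3 of 17. Of all genomic reads of members, 64.0% in replicate 1 and 65.5% in replicate 2 lay within the last exon of the gene's main annotated transcript.

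Mrpl33 was the only one of the 78 members whose main transcript was a new model. The model was present in both libraries with the same introns, with 263 of 326 reads in replicate 1 (80.7%) and 50 of 63 in replicate 2 (79.4%). The annotated coding transcript Mrpl33-201 has a first exon on chromosome 5 that ends at 31614022 (mm10), a second exon of 19 bases from 31614603 to 31614621, and its next exon starts at 31616381. The new model ends its first exon 8 bases further on, at 31614030, and passes over the 19-base exon. The stretch where the forms differ is shown because it carries most reads of the gene, over chr5:31614003-31616400 on the plus strand, from GENCODE M21 transcripts. Capitals mark the short exon in the annotated form and the added bases in the new form.
Mrpl33-201: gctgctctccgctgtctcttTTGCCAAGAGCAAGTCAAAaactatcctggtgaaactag
Mrpl33 new form: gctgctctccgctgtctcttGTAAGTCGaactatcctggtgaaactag

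The annotated start codon, at 31614001, lies in the first exon, so the difference falls in coding sequence, of which Mrpl33-201 has 195 bases. The new form is 11 bases shorter at this place, which is not a multiple of 3. The added bases begin with GTAAGT, and in their best ungapped placement they matched 6 of 8 letters of bases 10 to 17 of the short exon. Of the reads that joined a donor site to that next exon, the new site took 264 of 305 (86.6%) in replicate 1 and 50 of 57 (87.7%) in replicate 2. The end of the 19-base exon took 26 of 305 (8.52%) and 4 of 57 (7.02%). The 2 libraries gave the same order, with intervals that did not overlap between the sites. Whether single reads hold the 19 bases was not tested, since reads were not analysed here.

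Exons of this size were passed over by models of other genes as well. Reads are counted here by the transcript model they were assigned to, and whether single reads hold these exons was not tested. Among exons of 13 to 20 bases in coding transcripts with at least 20 reads in each library, 8 of 48 were passed over by way of an unannotated splice site in over 50% of reads in both libraries, and 12 of 48 were held in over 50%. Among the 17 of these that no annotated coding transcript passes over, a set chosen after the first values were seen, the counts were 7 passed over, with Mrpl33 among them, and 10 held. In Hnrnpk, chosen after its values were seen, a 16-base exon was in the models of 0 of 912 reads in replicate 1 and 1 of 318 in replicate 2. In Rnf5, also chosen afterwards, a 19-base exon was in the models of 165 of 177 reads and 56 of 60.

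**Figure D4:**
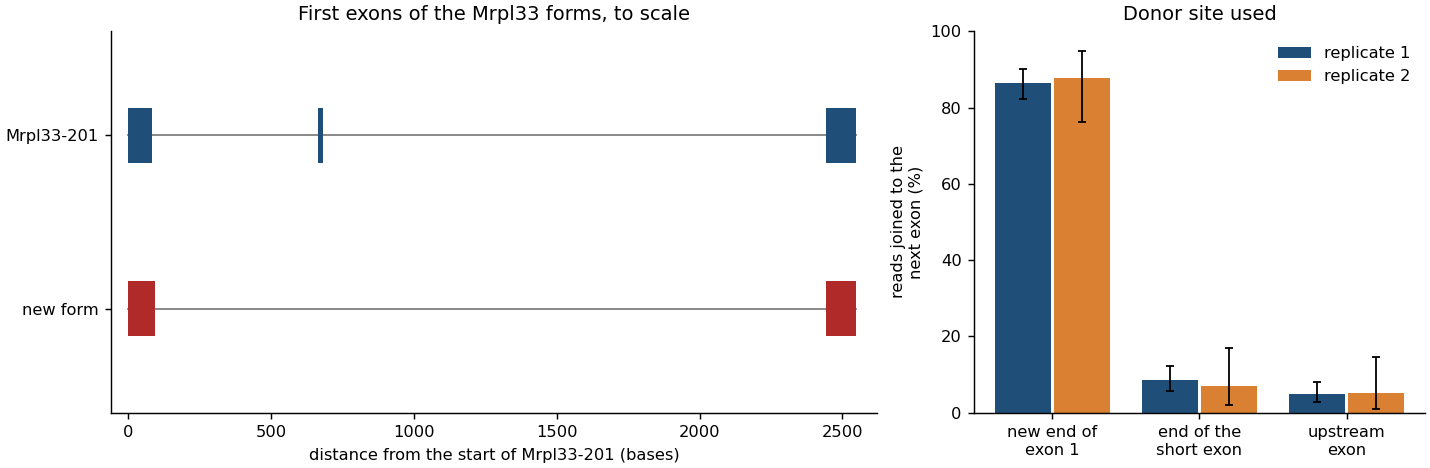
Left, the first 3 exons of Mrpl33-201 (blue) and the matching exons of the new form (red), to scale, by distance from the annotated start in bases. Right, the percentage of reads that reach the next exon from each donor site in replicate 1 (blue) and replicate 2 (orange) with exact 95% intervals; the new end of exon 1 takes 86.6 and 87.7%.

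Mrps10, a small-subunit protein, was split over annotated forms that differ at the start of an internal exon on chromosome 17. An acceptor after 47372575 took 45 of 90 reads in replicate 1 and 24 of 41 (58.5%) in replicate 2. An acceptor 3 bases upstream took 32 of 90 (35.6%) and 12 of 41 (29.3%), and the exon was passed over by 13 of 90 (14.4%) and 5 of 41 (12.2%). The order was the same in both libraries. The junction is shown over chr17:47372477-47372590 on the plus strand, from GENCODE M21 transcripts, with the 3 added bases in capitals.
Mrps10-204: tggtggcctcgcgcttgccagtatgaagtg
Mrps10-203: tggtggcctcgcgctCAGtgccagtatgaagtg

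Mrpl55 also had acceptors 3 bases apart, and the first took 42 of 60 reads (70.0%) and 11 of 19 (57.9%). In Mrpl24, 3 annotated donors took 72.4, 19.7 and 7.89% of the first library's reads and 61.1, 27.8 and 11.1% of the second's. In Mrps23, a donor 95 bases downstream of the main one took 40 of 188 reads (21.3%) and 11 of 45 (24.4%). Mrps17 used its main donor in 73.3 and 78.4% of reads, a donor 147 bases downstream in 15.8 and 13.5%, and a new junction that passes over the exon before it in 10.9 and 8.11%. In Mrpl30, an internal exon was passed over in 22 of 66 reads (33.3%) and 4 of 27 (14.8%), with wide intervals at this depth.

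In all, members had 265 new spliced transcripts, 205 in replicate 1 and 106 in replicate 2, of which 46 were in both and 7 had at least 3 reads in each. Mrpl33 held 2 of the 7, and the second, with 13 and 3 reads, joins an annotated donor upstream to the same acceptor by a new junction. Mrps10 had 12 and 4 reads in a new chain of annotated introns, and Mrps17 11 and 3 reads in the form that passes over an exon. Mrpl10 had 8 and 3 reads in a form whose first exon lies upstream of the annotated gene and ends before 97039196 on chromosome 11. Mrps27, an RNA-binding small-subunit protein, had 7 and 7 reads in a new chain of annotated introns that includes an additional exon, which starts after 99401269 on chromosome 13. Mrpl38 had 3 and 3 reads in a new chain of annotated introns. The additional exon of Mrps27 was held by 7 of 126 reads (5.56%) in replicate 1 and 7 of 53 (13.2%) in replicate 2, with overlapping intervals (2.26 to 11.1% and 5.48 to 25.3%).

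Promoter windows of 250 bases before to 50 bases after the start were given by RefSeq (GRCm38.p6) for 69 of the 78 members. Motifs were searched as exact letters on both strands: CGCATGCG as the core of the site of NRF1, an activator of nuclear genes for mitochondrial proteins, CCGGAAG as a core of ETS family sites, AAGATGGCG as a core of YY1 sites, and CCAAT. The ETS core was in 26 of 69 members (37.7%, exact 95% interval 26.3 to 50.2%), against 22.1% of 7685 detected genes and 9.93% of all 27025 genes with a window. The YY1 core was in 8 members (11.6%, 5.14 to 21.6%), against 4.03% of detected and 1.64% of all genes. This core holds the letters ATG, and the window runs 50 bases past the start. Whether its matches fall on start codons was not tested. The NRF1 core was in 7 members (10.1%, 4.18 to 19.8%), against 4.72% and 2.07%. CCAAT was in 27 members (39.1%), near the 42.8% of detected and 41.1% of all genes. At least 1 of the first 3 cores was in 36 members (52.2%), 28.5% of detected genes and 12.8% of all genes. A match is a description of letters and not of binding. Members with the ETS core had a median level of 72.2 CPM and those without 73.7 CPM. The 8 with the YY1 core had a median of 92.1 CPM against 72.1 CPM without it, and the 7 with the NRF1 core 87.8 CPM against 72.2 CPM. These medians were not tested.

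**Figure D5:**
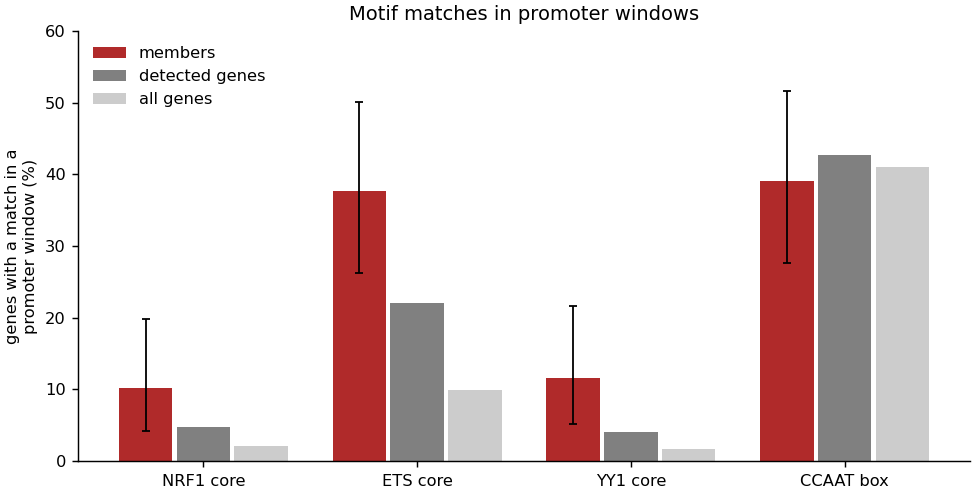
Percentage of genes with a match to each motif in a promoter window (vertical axis) for 69 members (red, exact 95% interval), 7685 detected genes (dark grey) and 27025 genes with a window (light grey). The ETS core is in 37.7% of members and 22.1% of detected genes, while CCAAT is in 39.1 and 42.8%.

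Windows are shown for Mrpl17, which holds an NRF1 and an ETS core, for Mrps27, which holds an ETS and a YY1 core, and for Mrps11, which holds a YY1 core and diverges from another member. Capitals mark these cores on either strand. They lie at chr7:105811038-105811337 (minus strand), chr13:99344536-99344835 (plus strand) and chr7:78782881-78783180 (plus strand).
Mrpl17: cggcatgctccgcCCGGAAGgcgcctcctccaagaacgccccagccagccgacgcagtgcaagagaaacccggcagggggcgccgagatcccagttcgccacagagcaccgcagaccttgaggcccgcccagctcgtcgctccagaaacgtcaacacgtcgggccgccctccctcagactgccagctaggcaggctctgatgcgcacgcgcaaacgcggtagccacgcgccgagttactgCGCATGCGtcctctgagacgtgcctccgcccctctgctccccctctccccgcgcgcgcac
Mrps27: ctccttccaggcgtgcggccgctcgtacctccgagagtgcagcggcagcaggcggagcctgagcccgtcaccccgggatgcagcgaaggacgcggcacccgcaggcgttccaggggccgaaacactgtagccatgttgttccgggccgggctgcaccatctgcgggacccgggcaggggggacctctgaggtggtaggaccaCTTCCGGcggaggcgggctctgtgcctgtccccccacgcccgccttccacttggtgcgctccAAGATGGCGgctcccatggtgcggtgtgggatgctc
Mrps11: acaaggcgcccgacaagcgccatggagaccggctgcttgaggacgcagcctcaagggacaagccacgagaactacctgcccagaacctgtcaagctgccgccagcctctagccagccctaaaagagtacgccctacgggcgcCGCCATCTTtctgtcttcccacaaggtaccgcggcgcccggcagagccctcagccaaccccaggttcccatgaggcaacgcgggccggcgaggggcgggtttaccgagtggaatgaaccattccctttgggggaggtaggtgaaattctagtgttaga

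Members often had a neighbour that starts close by on the other strand. A head-to-head gene within 1000 bases was annotated for 27 of 78 members (34.6%, exact 95% interval 24.2 to 46.2%), against 19.2% of 9549 detected protein-coding genes. For 23 members (29.5%, 19.7 to 40.9%) the neighbour was protein-coding, against 12.8%. Mrpl49 starts 59 bases from Fau, a cytosolic ribosomal protein gene with 230.7 and 135.3 CPM. Mrpl32 starts 75 bases from the proteasome gene Psma2 (200.9 and 173.1 CPM), and Mrps12 starts 172 bases from Sars2, the mitochondrial seryl-tRNA synthetase (9.09 and 7.96 CPM). Mrpl36 overlaps the start of Ndufs6, a complex I subunit, by 29 bases. These 4 pairs were chosen after their values were seen, and Fau and Psma2 had the highest mean levels of all 27 neighbours. The neighbours of Mrpl10 (Lrrc46), Mrpl57 (Ska3) and Mrpl27 (Eme1) had no read in either library. Mrps11 and Mrpl46 have RefSeq starts 42 bases apart on opposite strands, and are outside the count because their GENCODE genes overlap by 413 bases, above the limit of 200. Mrps11 had 105.0 and 63.7 CPM, and Mrpl46 43.8 and 41.8 CPM, so the pair was read at different levels.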

How the data were processed

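Total RNA of adrenal glands was read in 2 long-read libraries of 1 group. The authors deposited whole-number counts of reads per transcript model, not normalised, with TALON classes, per the file headers. The build was mm10 and the annotation GENCODE M21, per the deposited description of the files. The aligner, the platform and the TALON version were not given in the sources used here. Rows of genes outside the annotated nuclear set (spike-ins, mitochondrial chromosome, new genes) stayed out of library sizes, which left 94.7% of 1277310 reads and 96.6% of 520388.

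Counts were summed per gene. Fisher's exact test (two-sided, scipy 1.17.1) set each gene's reads in the libraries against all others, with 10 reads over both as the minimum and 0.5 reads added for log2 ratios. Adjustment (statsmodels 0.14.6) was over all tested genes. Main transcript shares used all reads of a gene, with at least 50 in each library. That denominator is the plain reading of the design. A count over annotated and new spliced reads alone was tried after the first values were known, briefly took its place, and is given beside it as an added alternative. Short exons that no annotated transcript passes over were also set apart after seeing the data. A 0 count allows 3 reads, which is 2.48 and 5.97 CPM. The tests were run on simulated counts and shares with Poisson or binomial error alone. Spread between libraries was not simulated, so that check does not cover it. edgeR 4.0.16 and DESeq2 1.42.0 gave alternative scalings.

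Members and lists were chosen with earlier results of these data known. Named genes were the highest (8 large, 6 small) and 4 lowest members, called members, the 8 lowest shares, shared new transcripts, Mrps18 paralogues, Mrps36, Mrps30, Mrpl12, and the 3 leading genes of each related list, of which 1 is not reported here.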

Additional observations from a re-analysis of the deposited data

Results flagged for a closer look

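Reads were also found outside the genes counted. The processed pseudogene Mrpl23-ps1, on chromosome 2 from 74591330 to 74591909 (mm10), had 40 reads in replicate 1 and 11 in replicate 2, above the limit of 3 reads in each library. Mrpl23 itself had 74 and 18 reads, and how reads of near-identical sequence were shared between them was not tested.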

How the results depend on the processing

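No paired analysis was possible because there is 1 group. The count of called members was 8 and stayed between 7 and 9 under scaling, read minimum, class, depth and added-read alternatives. These were 8.97 to 11.5% of members. Over all tested genes the called share ran from 5.24 to 13.9%, without a value for added reads. The count of called members was 5 after correction for length and GC content, or 6.41% of members against 8.40% of all tested genes. For Mrpl33 the correction used its main annotated transcript, although most of its reads lie in a model of 460 to 465 bases. Of the 8 called members, 3 (Mrps24, Mrpl37 and Mrps2) were called under every alternative that tested them. Mrpl33 turned to a log2 ratio of 0.092 with annotated transcripts alone. Without the 2-fold minimum, 1823 of all tested genes were called in place of 971. Members called for their main transcript share numbered 3, and 0 both with annotated models alone and with annotated and new spliced reads alone, so these calls depend on the denominator. No member had 100 reads of each library, so that minimum gave no value. Shared new transcripts numbered 46 at 1 read in each library and 2 at 5 reads. The ratio of large to small subunit was 1.41 by gene name. Incomplete reads were 2.56% for members under 1500 bases in place of 1.42% under 1000. The share of members with at least 1 of the NRF1, ETS and YY1 cores was 4.07 times that of all genes. Set against detected genes it was 1.83 times, and CCAAT was not part of this count. In the mitochondrial translation and transcription lists, called genes numbered 2. That count became 1 with replicate 1 thinned, and 3 both with annotated transcripts alone and after correction for length and GC content. Leaving out replicate 1 gave a median level of 61.7 CPM, a subunit ratio of 1.77 and an annotated share of 89.2%. Leaving out replicate 2 gave 81.0 CPM, 1.54 and 84.4%. Depth limits the low members, and 76 of 78 reached 10 reads in each library.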

Other observations

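Antisense models overlapped 31 of the 78 members, with 63 reads in replicate 1 and 10 in replicate 2. No member had 3 or more antisense reads in each library. The most were 9 in replicate 1, at Mrpl37, which had none in replicate 2. The pseudogene Mrpl48-ps had 1 read in each library. Over the 78 genes, levels in the 2 libraries on the log2(CPM + 1) scale had a Pearson r of 0.770 and a Spearman rho of 0.769, a description across genes of a pair of libraries.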
